A study of Homo sapiens with 3 samples.

Results

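Exon skipping was examined for 4 genes, the amyloid precursor protein gene APP, its homologue APLP2, and the microtubule-associated protein genes MAP2 and MAP4. Every event row with one of these gene symbols was taken from the deposited exon-skipping tables. Such rows numbered 58 among the 40702 of RS2 and 56 among the 42518 of RS3. These rows covered 43 distinct exons, of which 37 were listed in both tables. The genes were chosen by name, but with deposited values already known, since MAP2 and APP had been seen to hold RS3 differences that passed the limits used here. Counts over the 4 genes are therefore descriptions. The cells were BJ fibroblasts, a line of human foreskin fibroblasts, on day 8 after induction of OCT4, SOX2, KLF4 and MYC. They had received SMAD3 siRNA, SFRS11 siRNA or non-targeting siRNA, with 1 library per group, and every group carried the reprogramming factors. SMAD3 transmits TGF-beta signals, and SFRS11 is an arginine and serine rich splicing factor now called SRSF11. The libraries coded RS2 and RS3 are each set against a library that both tables share, called the shared library here. No label ties a code to an siRNA, so no value is assigned to a knockdown. The tables hold no expression levels, so neither the knockdowns nor the fibroblast label could be checked. Read depth is unknown.

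APP and APLP2 are single-pass membrane proteins whose outer part is shed by secretases, and cutting of APP by beta- and gamma-secretase releases the amyloid peptide. APP exon 7 encodes a Kunitz-type protease inhibitor domain and exon 8 a short stretch related to the OX-2 antigen. Neurons mainly make APP without both, and most other cells make forms with the Kunitz domain. Leaving out APP exon 15 or the corresponding short exon of APLP2 creates an attachment site for chondroitin sulfate, and such forms are known mainly from non-neural cells. MAP2 is a microtubule-binding protein of neuronal dendrites. Its high-molecular-weight forms carry a very large exon that the short form MAP2c lacks. MAP4 is its counterpart in most non-neural cells, and in mouse a variant with a very large exon is known from muscle. Both end in tubulin-binding repeats, and an alternative exon adds 1 repeat.

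The sequences of exons on which the values turn are printed here 5′ to 3′, from GENCODE release 29 transcripts on GRCh38. Each of the 43 listed exons, deposited in hg19 coordinates, was matched there by gene, length and place among the gene's other exons. An exon carries its number in the transcript with the longest coding sequence among those that contain it. Numbers in other transcripts can differ. MAP2 exon 9 is thus the 171-base exon here and not the very large exon, while the longest MAP2 transcript has the 135-base exon as its exon 9. The first pair are the Kunitz exons of APP and APLP2, in which capitals mark bases that are identical at the same position. They share 109 of 168 bases (64.9%).
APP exon 7, 168 bases, chr21:26000015-26000182, minus strand: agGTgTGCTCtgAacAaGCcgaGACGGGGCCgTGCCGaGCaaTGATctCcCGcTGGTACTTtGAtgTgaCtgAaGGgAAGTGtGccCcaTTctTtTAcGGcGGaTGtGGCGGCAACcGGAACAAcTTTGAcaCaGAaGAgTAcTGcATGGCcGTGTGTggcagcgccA
APLP2 exon 7, 168 bases, chr11:130123612-130123779, plus strand: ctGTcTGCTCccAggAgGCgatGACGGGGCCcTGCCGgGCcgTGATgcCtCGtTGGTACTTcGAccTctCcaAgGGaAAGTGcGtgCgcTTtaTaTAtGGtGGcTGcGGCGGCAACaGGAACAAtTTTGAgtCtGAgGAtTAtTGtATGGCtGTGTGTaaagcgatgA
The second pair are the repeat exons of MAP2 and MAP4, with capitals as before, and share 60 of 93 bases (64.5%).
MAP2 exon 12, 93 bases, chr2:209723595-209723687, plus strand: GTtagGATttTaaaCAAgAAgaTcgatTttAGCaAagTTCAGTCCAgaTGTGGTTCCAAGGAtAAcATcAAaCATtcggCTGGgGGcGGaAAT
MAP4 exon 17, 93 bases, chr3:47867246-47867338, minus strand: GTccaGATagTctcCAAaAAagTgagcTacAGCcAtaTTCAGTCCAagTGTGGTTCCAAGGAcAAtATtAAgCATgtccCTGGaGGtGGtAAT
The remaining exons have no partner of equal length and carry no capitals. They are the OX-2 exon of APP, the exons next to the chondroitin sulfate site in APP and APLP2, the called 171-base exon of MAP2, and the MAP4 exon just before the repeat exon.
APP exon 8, 57 bases, chr21:25997360-25997416, minus strand: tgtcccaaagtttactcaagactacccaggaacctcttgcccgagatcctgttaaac
APP exon 15, 54 bases, chr21:25905024-25905077, minus strand: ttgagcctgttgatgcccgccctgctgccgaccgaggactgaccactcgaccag
APLP2 exon 14, 36 bases, chr11:130137256-130137291, plus strand: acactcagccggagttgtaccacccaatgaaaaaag
MAP2 exon 9, 171 bases, chr2:209704450-209704620, plus strand: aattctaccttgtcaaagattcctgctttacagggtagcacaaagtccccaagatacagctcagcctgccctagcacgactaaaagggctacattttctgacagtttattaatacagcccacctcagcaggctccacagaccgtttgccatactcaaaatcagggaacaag
MAP4 exon 16, 114 bases, chr3:47869214-47869327, minus strand: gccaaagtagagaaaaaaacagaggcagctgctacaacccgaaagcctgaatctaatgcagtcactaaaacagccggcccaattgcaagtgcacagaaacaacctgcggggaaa

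Inclusion level is the share of transcripts over a region that keep the exon, from 0 to 1. The values used are the deposited differences in inclusion level, RS2 or RS3 minus the shared library, so a negative value means that the exon was kept less often than in the shared library. Levels per library were not used, so the share of each exon form in a library is not given, and the text says only where the balance between forms differed. A row is 1 exon in 1 splicing event. The flanking exons are not listed, so all rows of an exon are given, and rows of the RS2 table cannot be paired with rows of the RS3 table where an exon has several. Both tables use the same library for comparison, so their differences are not independent. An event was called when the deposited FDR was under 0.05 and the difference at least 0.1 in size. That FDR compares 2 libraries, not 2 conditions.

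**Figure D1:**
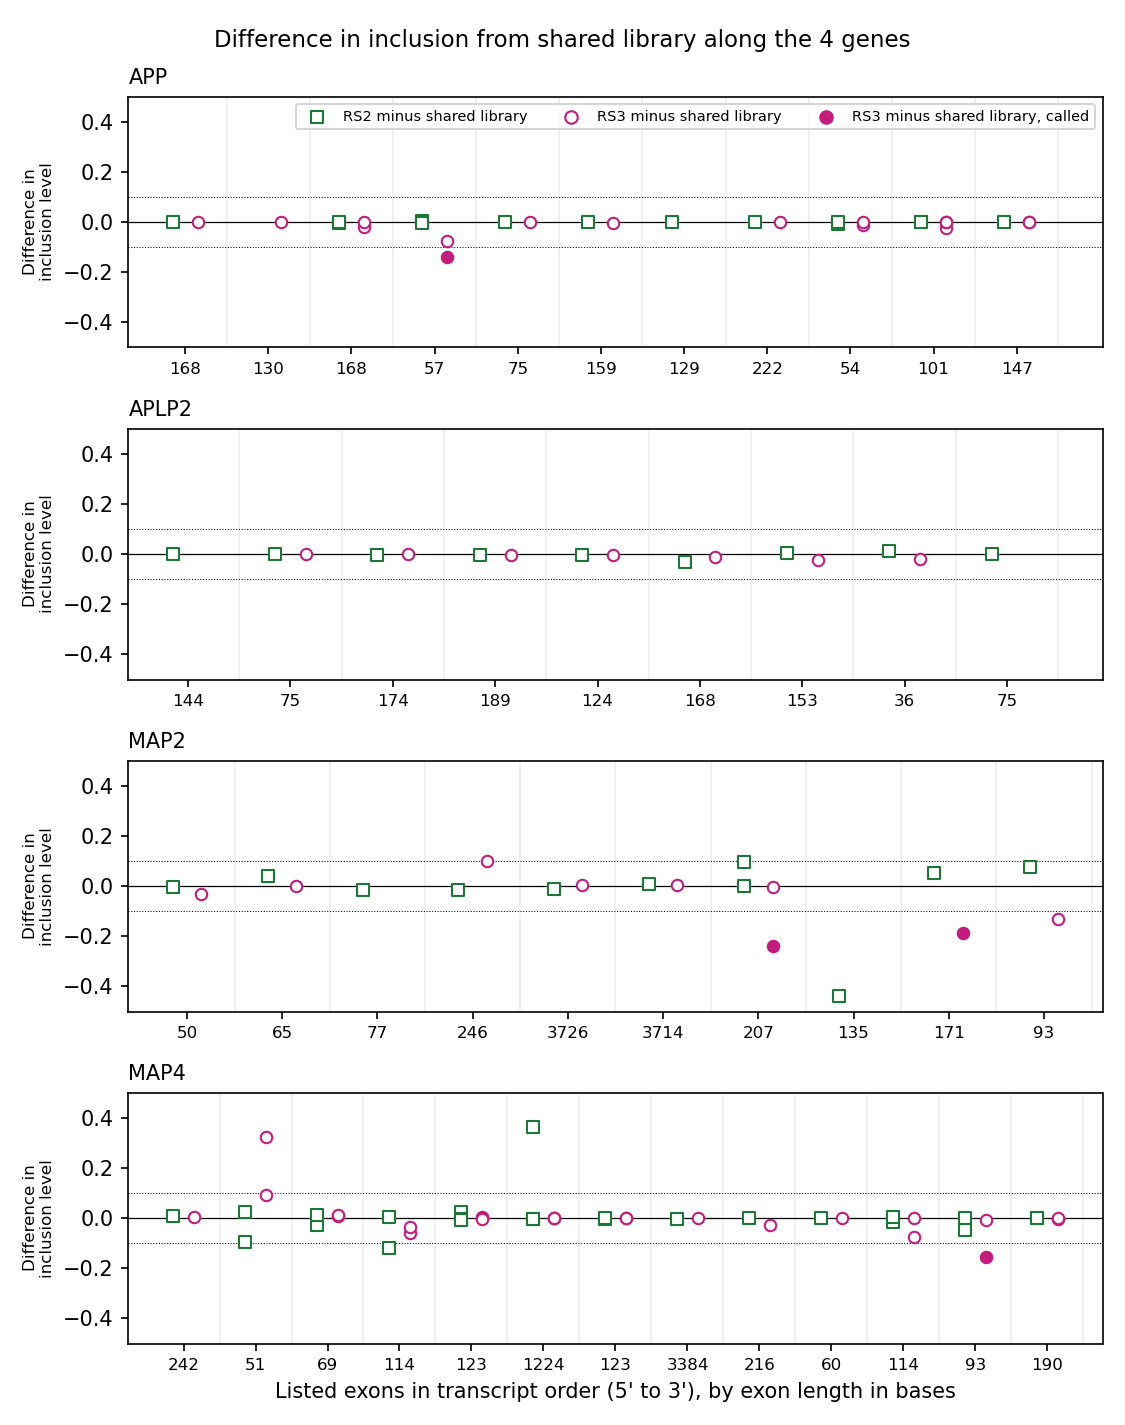
Deposited difference in inclusion level from the shared library (y axis) for every listed exon of APP, APLP2, MAP2 and MAP4 in transcript order (x axis, labelled by length in bases), with 1 symbol per row, RS2 as squares, RS3 as circles, called rows filled and dotted lines at 0.1 in either direction. APP and APLP2 lie close to 0 apart from the 57-base APP exon in RS3, and the 4 filled symbols are all RS3 rows below 0.

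APP (ENSG00000142192, chromosome 21, minus strand) was listed with 11 exons, all coding. The OX-2 exon was the APP exon that differed most, and it did so in RS3. This 57-base exon lies at 27369675 to 27369731 (hg19). Its RS2 rows were 0.004 and -0.003 in the authors' deposited table, both with an FDR of 1. Its RS3 rows were -0.138 (FDR listed as 0) and -0.076 (FDR 3.56e-13) in the authors' deposited table. Both RS3 rows were lower and both RS2 rows were near 0.

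The first of these RS3 rows was called, and the second was under the size limit. By arithmetic, the called row places inclusion in RS3 at 0.862 or less and in the shared library at 0.138 or more, if the authors' deposited table is taken at its word. GENCODE lists 10 coding APP transcripts that extend across this exon, 4 with it and 6 without. Of the coding transcripts that extend across the Kunitz exon, also 10, 6 contain it and 4 lack it.

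The Kunitz exon of APP, which most separates neural from other forms, differed little. At 27372330 to 27372497 (hg19) its RS2 rows were -0.003 and -0.001 in the authors' deposited table. The RS3 rows were -0.020 (FDR 0.000226) and -0.001 (FDR 1) in the authors' deposited table. The -0.020 row passed the FDR limit and was far under the size limit.

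Exon 15 of APP, next to the chondroitin sulfate site, has 54 bases (27277336 to 27277389, hg19). Its RS2 rows were -0.007 (FDR 0.216) and 0 in the authors' deposited table. In RS3 they were -0.013 (FDR 3.4e-07) and -0.001 (FDR 1) in the authors' deposited table. Both tables thus listed a row slightly below 0 and another at or next to it.

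Of the remaining APP exons, none had a row with an FDR under 0.05. Exon 2, which also has 168 bases (27484296 to 27484463), was at -0.001 in RS2 and 0 in RS3 in the authors' deposited tables. The 147-base exon near the 3′ end was at -0.001 in RS2, and at -0.001 and 0 in its RS3 rows, in the authors' deposited tables. The exons of 75 and 159 bases were at 0.001 and -0.001 in RS2 and at 0.001 and -0.003 in RS3 in the authors' deposited tables. The 129-base exon was listed only for RS2, at 0 in the authors' deposited table.

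Of the APP exons outside these, the 222-base exon was at 0.001 in RS2 and 0 in RS3 in the authors' deposited tables. The 130-base exon was listed only for RS3, at -0.001 in the authors' deposited table. The 101-base exon, just before the 147-base exon, had RS3 rows of -0.024, -0.001 and 0 and RS2 rows of 0 and 0 in the authors' deposited tables. All 14 RS2 rows of APP lay within 0.01 of 0, as did 11 of its 16 RS3 rows.

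APLP2 (ENSG00000084234, chromosome 11, plus strand) was listed with 9 exons, 7 of them coding, each in a single row per table. No row was called, and its largest difference was in RS2. The Kunitz exon (129993507 to 129993674, hg19), the counterpart of APP exon 7, was at -0.031 (FDR 0.0435) for RS2 and -0.013 (FDR 0.83) for RS3 in the authors' deposited tables. Both values were negative, and the RS2 value passed the FDR limit without reaching the size limit.

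The short exon of 36 bases (130007151 to 130007186), next to the chondroitin sulfate site of APLP2, was at 0.013 (FDR 1) for RS2 and -0.019 (FDR 0.0793) for RS3 in the authors' deposited tables. Its neighbour of 153 bases (130005458 to 130005610) was at 0.006 (FDR 1) for RS2 and -0.023 (FDR 0.000284) for RS3 in the authors' deposited tables. At both exons RS2 lay slightly above 0 and RS3 slightly below, and none of the 4 values reached 0.1.

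Exon 2 of APLP2 was listed in a shorter form that is coding and a longer form that is annotated as not coding. The 174-base form was at -0.004 in RS2 and -0.001 in RS3, and the 189-base form at -0.005 in RS2 and -0.002 in RS3, in the authors' deposited tables. The 124-base exon was at -0.005 in RS2 and -0.004 in RS3 in the authors' deposited tables. The 75-base exon at 129971821 to 129971895 was at 0 in RS2 and 0 in RS3 in the authors' deposited tables. The exons of 144 bases and of 75 bases at the 3′ end were listed only for RS2, at 0.001 and 0 in the authors' deposited table.

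MAP2 (ENSG00000078018, chromosome 2, plus strand) was listed with 10 exons, 7 of them coding, and held 2 of the 4 called exons. Inclusion of both was lower in RS3. The 171-base exon (210569174 to 210569344, hg19) was at 0.053 (FDR 1) for RS2 and -0.189 (FDR 1.66e-07) for RS3 in the authors' deposited tables, with a single row in each. RS2 lay above the shared library and RS3 below it, and the RS3 row was called. From the authors' deposited table, RS3 kept this exon at 0.811 or less and the shared library at 0.189 or more.

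The 207-base exon follows the large exon in the longest GENCODE transcript. Its RS2 rows were 0.097 and 0.001 in the authors' deposited table, both with an FDR of 1. Its RS3 rows were -0.239 (FDR 0.0484) and -0.002 (FDR 1) in the authors' deposited table. Each table thus held a row near 0 and another away from it, above 0 in RS2 and below 0 in RS3. The -0.239 row is the widest called difference of the 4 genes, and its FDR is the closest to the limit. It places inclusion at 0.761 or less in RS3 and 0.239 or more in the shared library, from the authors' deposited table.

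The repeat exon of MAP2, 93 bases at 210588319 to 210588411, adds a tubulin-binding repeat. It was at 0.076 (FDR 1) for RS2 and -0.130 (FDR 0.498) for RS3 in the authors' deposited tables, with a single row in each. Its signs were those of the 171-base exon, and neither value was called.

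The very large exon, which marks the high-molecular-weight neuronal forms, differed little. In its 3714-base form (210557361 to 210561074) it was at 0.009 (FDR 1) for RS2 and 0.005 (FDR 0.844) for RS3 in the authors' deposited tables. The 3726-base form was at -0.012 (FDR 1) for RS2 and 0.004 (FDR 0.915) for RS3 in the authors' deposited tables. The widest value at this exon was -0.012. The 207-base exon, which comes directly after it in the longest GENCODE transcript, was at -0.239 (FDR 0.0484) in 1 RS3 row and at -0.002 in the other. Of 6 coding transcripts that extend across each exon, 4 lack the large exon and 4 lack the 207-base exon. The large exon alone therefore does not show whether the balance of these forms was the same.

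The other MAP2 exons had no called row, and some had wide differences. The 135-base exon lies just after the 207-base exon and was listed only for RS2, at -0.438 (FDR 1) in the authors' deposited table. It is the widest RS2 difference of the 4 genes, without support from its FDR. The 246-base exon was at -0.015 in RS2 and 0.098 in RS3 in the authors' deposited tables, both with an FDR of 1. The non-coding exons of 50 and 65 bases, in the 5′ part of the gene, were at -0.005 and 0.042 in RS2 and at -0.033 and 0.002 in RS3 in the authors' deposited tables. The non-coding 77-base exon was at -0.015 in the authors' deposited table, for RS2 only.

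MAP4 (ENSG00000047849, chromosome 3, minus strand) was listed with 13 exons, 12 coding and 1 partly coding. Its repeat exon, the counterpart of the MAP2 repeat exon, was kept less often in RS3. This 93-base exon (47908736 to 47908828, hg19) had RS2 rows of -0.047 and 0.002 in the authors' deposited table, both with an FDR of 1. The RS3 rows were -0.154 (FDR 0.00358) and -0.009 (FDR 1) in the authors' deposited table. Both tables had a row below 0 and another close to it, and the -0.154 row was called. It sets inclusion at 0.846 or less in RS3 and 0.154 or more in the shared library, from the authors' deposited table.

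Inclusion of the 114-base exon just before it (47910704 to 47910817) had the same sign in RS3 with a smaller size. Its RS3 rows were -0.076 (FDR 0.00124) and -0.001 (FDR 1), and its RS2 rows -0.017 and 0.006 (FDR 1 for both), in the authors' deposited tables. The 216-base exon (47917175 to 47917390) was at 0.002 (FDR 1) for RS2 and -0.028 (FDR 2.1e-06) for RS3 in the authors' deposited tables. Both exons passed the FDR limit in RS3 and stayed under the size limit.

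The 51-base exon of MAP4 (48028873 to 48028923), in the 5′ part, had positive RS3 rows. They were 0.323 (FDR 1) and 0.092 (FDR 0.488), against RS2 rows of -0.095 and 0.024 (FDR 1 for both), in the authors' deposited tables. The 0.323 row is the widest RS3 difference of the 4 genes and was not called.

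In RS2, 2 further MAP4 exons had a row past 0.1 that was not called. The 114-base exon at 47963255 to 47963368 had RS2 rows of -0.121 and 0.006 and RS3 rows of -0.059 and -0.034 in the authors' deposited tables. The 1224-base exon had RS2 rows of 0.364, -0.004 and -0.002 and RS3 rows of 0.001, 0.001 and 0.002 in the authors' deposited tables. For each of them 1 RS2 row stood apart from the others.

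The large 3384-base exon of MAP4 (47950528 to 47953911) was at -0.004 in RS2 and 0 in RS3 in the authors' deposited tables. The exon of 60 bases was at 0 in RS2 and 0.001 in RS3, and that of 242 bases at 0.008 and 0.006, in the authors' deposited tables. The exons of 69 and 190 bases and both of 123 bases ranged from -0.026 to 0.026 in RS2 and from -0.005 to 0.014 in RS3 in the authors' deposited tables. None of these rows passed the FDR limit.

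Over the 4 genes, 4 of 56 rows (7.14%) were called in RS3, all lower, against 0.967% of all rows of that table, and 0.736% of all rows were called lower. The called rows belong to APP, MAP2 (2 exons) and MAP4, and APLP2 had none. With an FDR under 0.05 and no size limit, 10 of 56 rows passed, all lower, against 1.64% of all rows in either direction and 1.19% lower. Called rows end at -0.138 (APP), and the next rows with such an FDR are both at -0.076 (APP and MAP4). A deposited p-value under 0.05 was listed for 13 of 56 rows, against 7.61% of all rows. APP and MAP2 were known to hold called events beforehand, so nothing is read from these shares.

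Large differences without regard to FDR were rarer in the 4 genes than in the table. In RS3, 6 of 56 rows (10.7%) differed by at least 0.1, against 21.2% of all rows. The median RS3 difference was -0.001 for the 4 genes and -0.001 for all rows, and 35 of 56 rows (62.5%) lay within 0.01 of 0, against 37.5% of all rows. Most rows of these genes were thus close to 0, and those lower with a low FDR were few.

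In RS2, 0 of 58 rows were called, against 0.0712% of all rows. The Kunitz exon of APLP2 was the 1 row with an FDR under 0.05, against 0.165% of all rows. The deposited p-value was under 0.05 for 4 of 58 rows (6.90%), against 4.52% of all rows. These were the APLP2 exons of 168 and 36 bases, APP exon 15 and a row of the MAP4 exon at 47963255 to 47963368. A size of 0.1 or more was listed in 3 of 58 rows (5.17%), against 19.2% of all rows, and the median difference was 0 for the 4 genes and 0 for all rows.

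**Figure D2:**
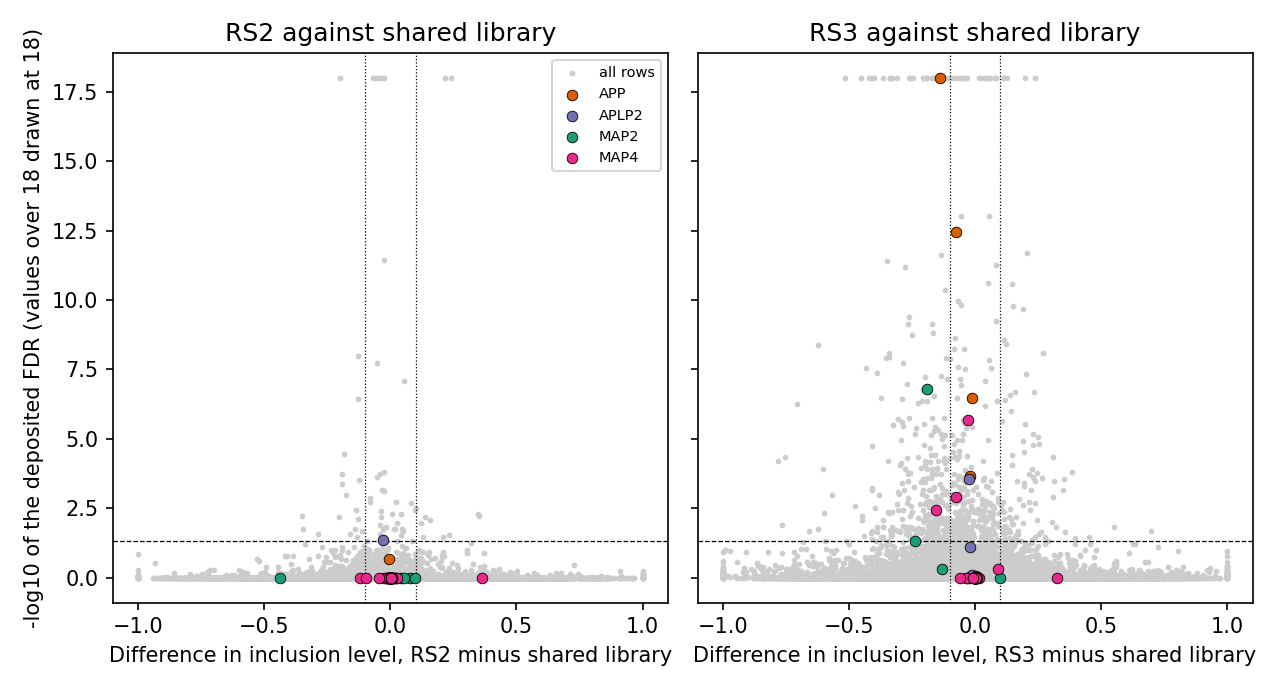
Difference in inclusion level from the shared library (x axis) and -log10 of the deposited FDR (y axis, drawn at 18 where higher or where the FDR is listed as 0) for all rows (grey) and the rows of the 4 genes (coloured) in the RS2 and RS3 tables, with the limits of 0.05 (dashed) and 0.1 (dotted). All 10 rows of the 4 genes above the dashed line in the RS3 panel lie left of 0, and 1 row, of APLP2, lies above it in the RS2 panel.

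The called exons share a length that keeps the reading frame. Their lengths of 57, 93, 171 and 207 bases are all multiples of 3, as are 31 of the 38 exons of these genes in the RS3 table (81.6%), against 41.4% of all exons in that table. Among coding GENCODE transcripts that extend across each exon, 6 of 10 lack the APP exon, 4 of 6 lack each of the MAP2 exons and 1 of 6 lacks the MAP4 exon.

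Calls in other genes of both families are given beside the share over all rows. Of 30 genes of the amyloid precursor family and its processing, such as the secretases and adaptor proteins, 26 were listed in the RS3 table and 24 in the RS2 table. The 1 gene called in RS3 was NUMB, which encodes an adaptor that limits Notch signalling. Its 144-base exon had RS3 rows of -0.110 (FDR 6.98e-08) and -0.002 (FDR 1) in the authors' deposited table. The RS2 rows of this exon were -0.048 (FDR 0.916) and 0.042 in the authors' deposited table, and neither was called. In RS3, 0.671% of the 149 rows of this list were called, against 0.967% of all rows. In RS2, 0 genes of the list were called, against 0.0712% of all rows. The median difference over its rows was -0.001 in RS2 and -0.002 in RS3.

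Of 42 further microtubule-associated genes, 34 were listed in the RS3 table and 2 of these were called, 1 lower and 1 higher. MARK2, a kinase that phosphorylates microtubule-associated proteins, had its 162-base exon at -0.176 (FDR 0.000266) in RS3 and at -0.102 and -0.090 in RS2 in the authors' deposited tables. DST, a linker of the cytoskeleton, had an 18-base exon at 0.101 (FDR 0.0454) in RS3 and 0.080 (FDR 0.557, not called) in RS2 in the authors' deposited tables. In RS3, 1.61% of the 124 rows of this list were called, against 0.967% of all rows. In RS2, 0 of 33 listed genes were called. The median difference over the rows of this list was 0.004 in RS2 and -0.0045 in RS3.

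**Figure D3:**
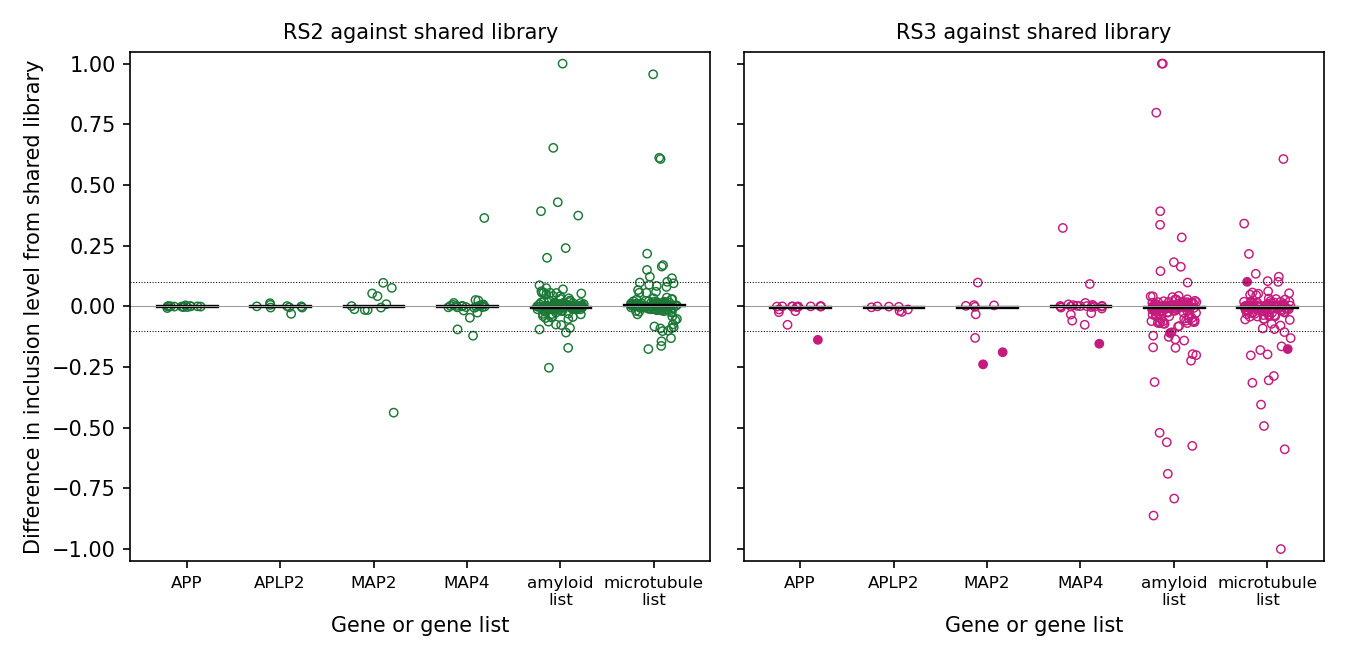
Deposited difference in inclusion level from the shared library (y axis) for each row of the 4 genes, of the list of 30 amyloid precursor genes and of the list of 42 microtubule-associated genes (x axis), with RS2 left and RS3 right, called rows filled, the median as a bar and points spread sideways at random. The rows of the 4 genes stay between -0.438 and 0.364, and every median lies within 0.01 of 0.

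Of 8 fibroblast marker genes, 8 had rows in each table, and 1 gene (FN1, fibronectin) had a called row in each. The called share of the rows of these markers was 1.69% in RS2, against 0.0712% of all rows, and 1.43% in RS3, against 0.967% of all rows. Of 8 neural marker genes, 4 had rows in the RS3 table and 3 in the RS2 table, and 0 were called in either. A row shows that an event was tested and gives no amount of RNA.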

How the data were processed

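RNA was purified and turned into TruSeq mRNA libraries, per the labels' protocols. Reads were aligned with STAR to hg19 and checked with FastQC, per the submitters' processing notes. For the splicing calls, the program was not stated in the sources used here. What the authors deposited are 2 tables that hold, per the file headers, a difference in inclusion level (a score from -1 to 1), a p-value and an FDR per event. The 4 further columns, of inclusion level per library, match no label and were not used. They were looked at during the work, in a draft of text and figures that was discarded, and that look settled the sign of the difference as RS2 or RS3 minus the shared library. Every statement of higher or lower inclusion, and each limit on inclusion taken from a called difference, rests on that sign. No value from these columns is printed, and a planned account of inclusion in each library was not carried out. Read counts were not used, so no interval is given, and the p-values measure only the difference between single libraries.

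The members and lists were chosen with earlier results of these data known. Values were read with Python 3.11.15 and pandas 2.3.3. Calls required an FDR below 0.05 together with a difference of 0.1 or more. The calling step was run on simulated data as a check of the code. Unchanged simulated events were kept under the size limit and changed ones were set far past both limits, so the outcome was fixed in advance. That run says nothing about errors of the calls in these libraries. Named with values are exons with a called row, APP and APLP2 exons of at most 200 bases that keep frame, and exons that differ by at least 0.1. Other exons were named after their values were seen. Annotation and sequence come from GENCODE release 29 on GRCh38, with a match allowed within 10 bases of the commonest shift of the gene. Alternatives were other limits on FDR and difference, a new Benjamini-Hochberg adjustment, 1 row per exon, and other rows of an exon. The sequence of 1 called MAP2 exon is not reported here.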

Additional observations from a re-analysis of the deposited data

Results flagged for a closer look

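The 4 genes had 22 exons with a single row in each table. At 2 of these, both of MAP2, the RS2 difference was above 0 and the RS3 difference below 0, each by at least 0.05. The share of such exons among all 22770 with a single row in each table was not counted, so nothing is read from this number. Only the RS3 value of the 171-base exon was called. The difference between RS3 and RS2 was not tested. For the 171-base exon, the RS3 difference minus the RS2 difference was -0.242, from -0.189 in RS3 and 0.053 in RS2 in the authors' deposited tables. For the 93-base repeat exon it was -0.206, from -0.130 in RS3 and 0.076 in RS2 in the authors' deposited tables. These values compare single libraries of unknown depth. The MAP2 exon of 207 bases and the MAP4 exon of 51 bases also had rows on both sides of 0, but their several rows cannot be paired between the tables.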

How the results depend on the processing

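With a minimum difference of 0.2, the called rows were 11 of all RS2 rows, 189 of all RS3 rows and 1 row of the 4 genes in RS3 (MAP2, 207 bases), against 29, 411 and 4 at a minimum of 0.1. The amyloid and microtubule lists then had 0 and 0 genes called in RS3. With an FDR under 0.01, 19 RS2 and 261 RS3 rows were called, and 3 rows of the 4 genes in RS3, without the MAP2 exon of 207 bases. With no minimum difference, an alternative chosen after seeing the data, 10 rows of the 4 genes passed in RS3 and 1 in RS2. A minimum of 0.05, a new Benjamini-Hochberg adjustment and 1 row per exon put their count in RS3 at 6, 4 and 4, and in RS2 at 0. The new adjustment used the same deposited p-values, so it checks only how the FDR was derived. The 1 row kept per exon was that with the smallest deposited p-value. The 4 called rows belong to different exons and each has its exon's smallest p-value, so this setting could not remove any of them. Taking the median over the rows of an exon, the RS3 difference was -0.107 for the APP exon of 57 bases, -0.1205 for the MAP2 exon of 207 bases and -0.0815 for the MAP4 repeat exon. Taking the row with the smallest difference, it was -0.076, -0.002 and -0.009. The cause was not tested. No paired analysis was possible because each group has 1 library. Leaving out a library was not possible for the same reason. Depth is unknown, so it cannot be said which differences these libraries could have shown.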
